A study of Mus musculus with 8 samples.

Results

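The cardiac lineage transcription factors are the DNA-binding proteins that build the heart in the embryo and keep the muscle programme running in the adult ventricle. The 10 genes described here are Gata4, Gata6, Nkx2-5, Tbx5, Tbx20, Hand2, Mef2a, Mef2c, Mef2d and Srf. They were taken by symbol from a table of 19505 named genes, and each of the 10 had 1 row. The expression arrays measured RNA from left ventricles of untreated male mice aged 8 weeks, of strain C57/BL6J in both groups. There were 4 hearts with cardiac-specific overexpression of miR-100 and 4 wildtype hearts (WT), with 1 array per heart. The comparison asks whether raising this microRNA went with a different RNA level of the factors that define the heart muscle lineage. The promoter that drives the overexpression, the number of transgenic lines and the litters are unstated in these sources, and p-values measure the spread between these 8 samples.

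These factors bind as partners. GATA4 and GATA6 are zinc finger proteins that bind GATA letters, NKX2-5 is a homeodomain protein, TBX5 and TBX20 carry a T-box domain, and HAND2 is a basic helix-loop-helix protein that pairs with E proteins on E-boxes. The MEF2 proteins and SRF share the MADS DNA-binding domain and bind A/T-rich boxes. Many sarcomere, ion channel and natriuretic peptide genes carry sites for several of them close together, and several of the factors bind near each other's genes.

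MiR-100 belongs to a family of microRNAs that share their seed, the stretch at bases 2 to 8 that pairs with target messengers. The mature sequences, from RefSeq on GRCm38.p6, are shown because they define the microRNA that was raised, with the seed in capitals.
mmu-miR-100-5p: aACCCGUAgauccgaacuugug
mmu-miR-99a-5p: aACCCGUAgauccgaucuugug
mmu-miR-99b-5p: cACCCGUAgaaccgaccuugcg
All 3 carry the seed ACCCGUA. Sites for this seed in the messengers of the 10 factors were not analysed here, and with 0 rows named Mir100 or Mir100hg the overexpression itself was not checked.

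None of the 10 genes passed the test over the whole table (adjusted p under 0.05, limma). The count was 0 of 10, against 31 of 22206 rows, or 0.14% of the table, with 0.0946% of rows called higher and 0.045% called lower. At an unadjusted p under 0.05 it was 1 of 10, against 7.73% of rows. The differences ran in both directions, with 5 above and 5 below 0 and a median of -0.04 on the log2 scale, against -0.015 over all rows. Tbx5 was the lowest, at -0.44, and Srf the highest, at 0.38. All values below are log2 signals or log2 differences, miR-100 minus WT, and 1 unit is a doubling. A row's signal depends on its probes as well as on its RNA, so levels are compared between groups and not between genes.

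**Figure D1:**
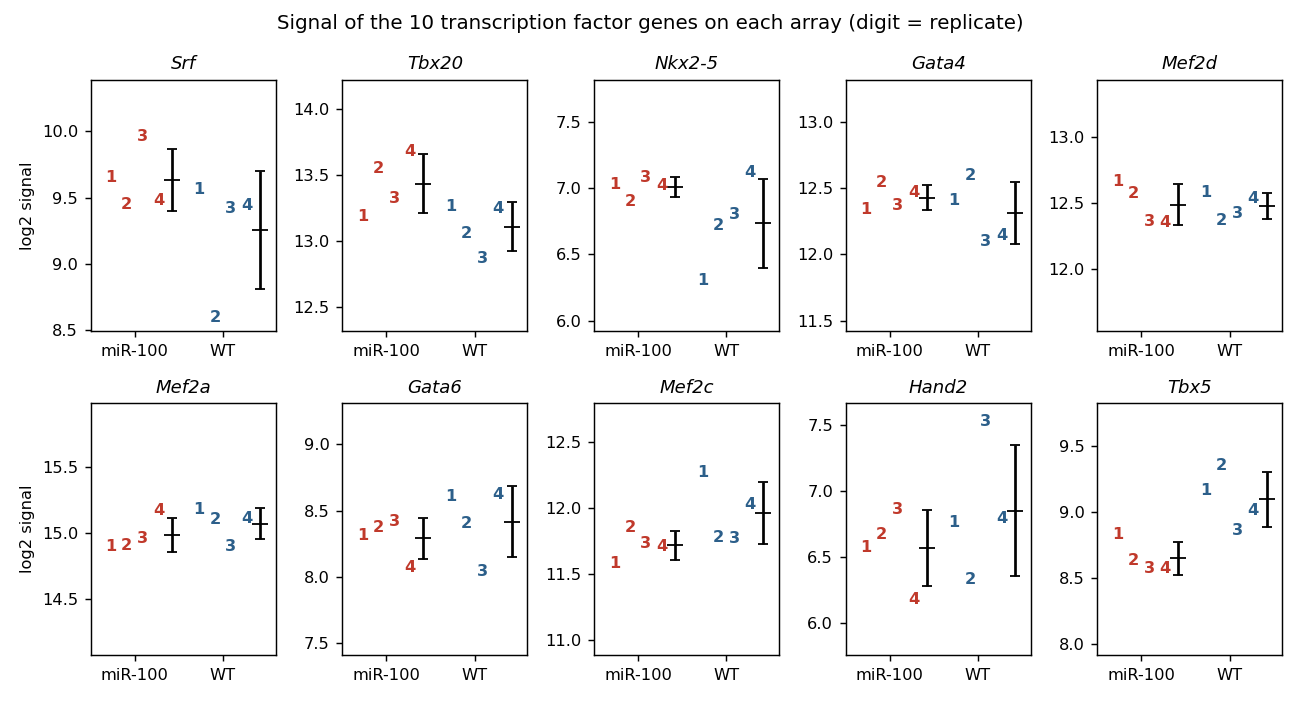
Log2 signal of each of the 10 genes (1 panel per gene, every y axis spanning the same log2 width), with miR-100 hearts in red and WT hearts in blue. Digits are replicate numbers and the black bar is the mean ± SD of 4 hearts. The groups do not overlap for Tbx5, whereas WT replicate 2 lies far below the other WT hearts for Srf.

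The arrays resembled each other, with correlations of 0.988 to 0.993 over all rows and column medians of 5.7 to 5.74. On the first principal component, with 21.7% of the variance, WT replicate 2 stood apart. Its score was -38.2, against -12.8 to -3.57 in the other WT hearts. At the other end miR-100 replicate 2 scored 30.9, against 8.87 to 13.6 in the other miR-100 hearts. Differences without WT replicate 2 are given beside the members that it moved. Marker rows are given beside the label of left ventricle, which they cannot check, since levels are not compared between genes. Rows of the ventricular light chain gene Myl2 (19.22 to 19.35 in miR-100 hearts and 19.35 to 19.47 in WT hearts) lay close to the top of the scale at 19.93, and the atrial light chain gene Myl7 was dim, at 3.36 to 4.48 in miR-100 hearts and 4.08 to 4.37 in WT hearts. The other atrial markers ran from Bmp10, with a row mean at percentile 14.1 of the table, to Nppa, at percentile 99.7. Myl4 among them was at percentile 67.9. Precision is set by the 4 arrays in each group. In whole tissue, fewer cells of a type and less RNA per cell cannot be told apart.

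The T-box genes held both the most negative and the second most positive difference. Tbx5 encodes an activator that works with GATA4 and NKX2-5 and is required for septation and conduction. Its log2 signal was 8.83, 8.63, 8.57 and 8.57 in the miR-100 hearts, against 9.16, 9.35, 8.86 and 9.01 in the WT hearts. Every miR-100 heart lay below every WT heart, though the highest miR-100 value (8.83) and the lowest WT value (8.86) nearly met. The means were 8.65 ± 0.12 in miR-100 hearts and 9.09 ± 0.21 in WT hearts (SD, n = 4 each). The difference was -0.44 (SE 0.15, 95% confidence interval -0.77 to -0.12), a ratio of 0.735, and it did not pass over the table (limma adjusted p = 0.425, unadjusted p = 0.0114, rank 593 of 22206 rows). Of all rows, 4.54% had groups that did not overlap, 2.21% with miR-100 hearts higher and 2.33% with them lower, so 1 of the 10 members is read against that share. Among the fits that left out 1 array in turn the difference of Tbx5 ran from -0.52 to -0.36, and its interval lay below 0 in 8 of 8. It was -0.36 without WT replicate 2.

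Tbx20 encodes a T-box protein that both represses and activates cardiac genes and is needed to maintain adult heart muscle. Its log2 signal was 13.19, 13.55, 13.32 and 13.68 in the miR-100 hearts, against 13.26, 13.06, 12.87 and 13.25 in the WT hearts. The groups overlapped only through miR-100 replicate 1, which lay below 2 of the 4 WT hearts. The difference was 0.33 (SE 0.16, interval -0.02 to 0.67, limma adjusted p = 0.682). It ran from 0.24 to 0.41 without single arrays and its interval was above 0 in 1 of the 8 fits, the one without miR-100 replicate 1. Whether the T-box pair differed from each other in their response was not tested.

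**Figure D2:**
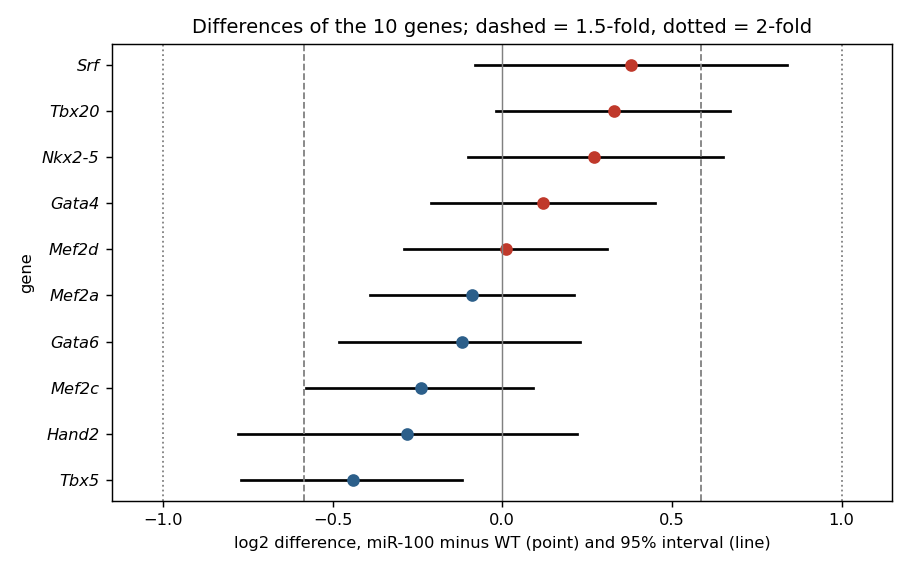
Log2 difference, miR-100 minus WT, of each gene (point, red above 0 and blue below 0) with its 95% confidence interval (line) from limma. Dashed lines mark a 1.5-fold and dotted lines a 2-fold change. The interval of Tbx5 alone lies wholly on one side of 0, and all 10 lie inside the dotted lines.

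Nkx2-5, the homeodomain factor of the early heart field, was among the dimmer members, with a row mean at percentile 60.8 of the table. Its log2 signal was 7.03, 6.90, 7.08 and 7.02 in miR-100 hearts, against 6.30, 6.72, 6.80 and 7.12 in WT hearts. The 4 miR-100 hearts lay close together, while the WT hearts were spread out, with replicate 1 lowest and replicate 4 above all miR-100 hearts. The SD was 0.08 in miR-100 hearts and 0.34 in WT hearts (n = 4 each). The difference of 0.27 (SE 0.17, interval -0.10 to 0.65, limma adjusted p = 0.776) was 0.13 without WT replicate 1 and was 0.40 without WT replicate 4.

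Gata4, which activates natriuretic peptide and myosin genes and responds to load, had 12.34, 12.54, 12.37 and 12.47 in miR-100 hearts, against 12.41, 12.60, 12.10 and 12.14 in WT hearts (log2 signal). The miR-100 hearts lay inside the range of the WT hearts. The difference was 0.12 (SE 0.15, interval -0.21 to 0.45, limma adjusted p = 0.919), and 0.21 without WT replicate 2. Its relative Gata6, which overlaps with Gata4 in function, had 8.31, 8.37, 8.42 and 8.07 in miR-100 hearts, against 8.61, 8.40, 8.04 and 8.62 in WT hearts. Each group held 1 low heart (8.07 and 8.04), and the rest overlapped. The difference was -0.12 (SE 0.17, interval -0.48 to 0.23, limma adjusted p = 0.92).

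Hand2, known for its part in the right ventricle and in ventricular growth, was the dimmest member, with a row mean at percentile 59.3, and its residual SD of 0.40 stood at percentile 90.8 of all rows. Its log2 signal was 6.57, 6.67, 6.86 and 6.18 in miR-100 hearts, against 6.76, 6.33, 7.52 and 6.79 in WT hearts. WT replicate 3 was the highest of the 8 and WT replicate 2 the second lowest. The difference of -0.28 (SE 0.23, interval -0.78 to 0.22, limma adjusted p = 0.858) was -0.06 without WT replicate 3 and -0.45 without WT replicate 2, so the value rested largely on WT replicate 3. The promoter of Hand2 from RefSeq on GRCm38.p6 (250 bases before to 50 after the gene start) is shown with its GATA letters in capitals. It was the only 1 of the 9 member promoters searched, from 7 members, that held them.
Hand2 promoter, chr8:57320733-57321032, plus strand: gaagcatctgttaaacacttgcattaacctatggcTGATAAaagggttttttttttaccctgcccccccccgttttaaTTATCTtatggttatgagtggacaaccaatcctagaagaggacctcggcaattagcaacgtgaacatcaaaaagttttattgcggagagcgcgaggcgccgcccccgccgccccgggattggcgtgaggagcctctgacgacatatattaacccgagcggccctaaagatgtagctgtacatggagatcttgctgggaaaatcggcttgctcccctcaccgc
The GATA letters searched were AGATAA and, separately, TGATAA on both strands, and 18.6% of 32851 promoters of this length held 1 or more. Gata4 and Tbx5 were not matched in the promoter table. The chromosome that holds Gata6 was left out of the search of member promoters, so its promoter was not examined.

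The MEF2 genes encode activators that bind as dimers and are held in check by class II histone deacetylases. Mef2a is the prevalent form in adult mouse heart, Mef2c is needed for the right ventricle and outflow tract in the embryo, and Mef2d takes part in the response to load. Mef2a had 14.90, 14.91, 14.96 and 15.17 in miR-100 hearts, against 15.18, 15.10, 14.90 and 15.11 in WT hearts (log2 signal). Its values were tight in both groups, and the residual SD of 0.12 stood at percentile 6.12 of all rows. The difference was -0.09 (SE 0.14, interval -0.39 to 0.21, limma adjusted p = 0.937).

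Mef2c had 11.58, 11.85, 11.73 and 11.71 in miR-100 hearts, against 12.27, 11.78, 11.77 and 12.03 in WT hearts. Only miR-100 replicate 2 reached the WT range, and WT replicate 1 was the highest of all. The difference of -0.24 (SE 0.15, interval -0.58 to 0.09, limma adjusted p = 0.775) was -0.14 without WT replicate 1 and -0.31 without WT replicate 2 or 3. Mef2d had 12.66, 12.57, 12.36 and 12.35 in miR-100 hearts, against 12.58, 12.37, 12.42 and 12.53 in WT hearts. The groups covered nearly the same range, and the difference was 0.01 (SE 0.14, interval -0.29 to 0.31, limma adjusted p = 0.994).

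Among the member promoters searched, the match to the MEF2 box lay in Mef2a itself, across its gene start. It is shown with the box in capitals, since MEF2 proteins are known to bind near their own genes.
Mef2a promoter, chr7:67372809-67373108, minus strand: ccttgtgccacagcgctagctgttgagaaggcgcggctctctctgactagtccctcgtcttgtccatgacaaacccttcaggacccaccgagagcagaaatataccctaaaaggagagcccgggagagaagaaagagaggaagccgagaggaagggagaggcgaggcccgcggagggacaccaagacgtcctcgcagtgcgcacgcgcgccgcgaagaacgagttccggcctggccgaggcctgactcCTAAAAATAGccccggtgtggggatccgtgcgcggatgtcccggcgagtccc
The MEF2 box was searched on both strands, and 3.19% of the 32851 promoters held it.

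Srf, which encodes serum response factor, had the largest positive difference and rested on 1 WT heart. Its log2 signal was 9.65, 9.45, 9.96 and 9.48 in miR-100 hearts, against 9.56, 8.59, 9.42 and 9.44 in WT hearts. WT replicate 2, the array that stood furthest apart, was far below the rest. WT replicates 3 and 4 lay just below the miR-100 range and WT replicate 1 inside it. The difference over all arrays was 0.38 (SE 0.21, interval -0.08 to 0.84, limma adjusted p = 0.718). Without WT replicate 2 it was 0.16 (interval -0.19 to 0.52). On the same array Smarcd3, a cardiac subunit of the BAF chromatin remodelling complex, was at 7.78, against 8.75 to 9.18 in the other WT hearts. The difference of Smarcd3 was 0.23 over all arrays and -0.07 without that array. Smarcd3 was picked after its values were seen, and rows of that array went both ways. Yap1, from the cofactor list, was at 9.65 there, against 8.76 to 9.27 in the other WT hearts.

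SRF binds the CArG box and is known to act on its own gene. The Srf promoter was the 1 of the 9 member promoters that held this box, with 2 matches at -82 to -73 and -62 to -53 from the gene start, in capitals.
Srf promoter, chr17:46556113-46556412, minus strand: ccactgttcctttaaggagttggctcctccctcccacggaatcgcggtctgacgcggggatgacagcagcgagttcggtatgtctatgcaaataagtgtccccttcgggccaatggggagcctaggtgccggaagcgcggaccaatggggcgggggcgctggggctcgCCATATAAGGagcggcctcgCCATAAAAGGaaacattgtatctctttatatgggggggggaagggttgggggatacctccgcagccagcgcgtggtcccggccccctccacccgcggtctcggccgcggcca
A CArG box, searched on both strands, was present in 1.63% of the 32851 promoters. A match is a description of the letters and shows no binding.

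**Figure D3:**
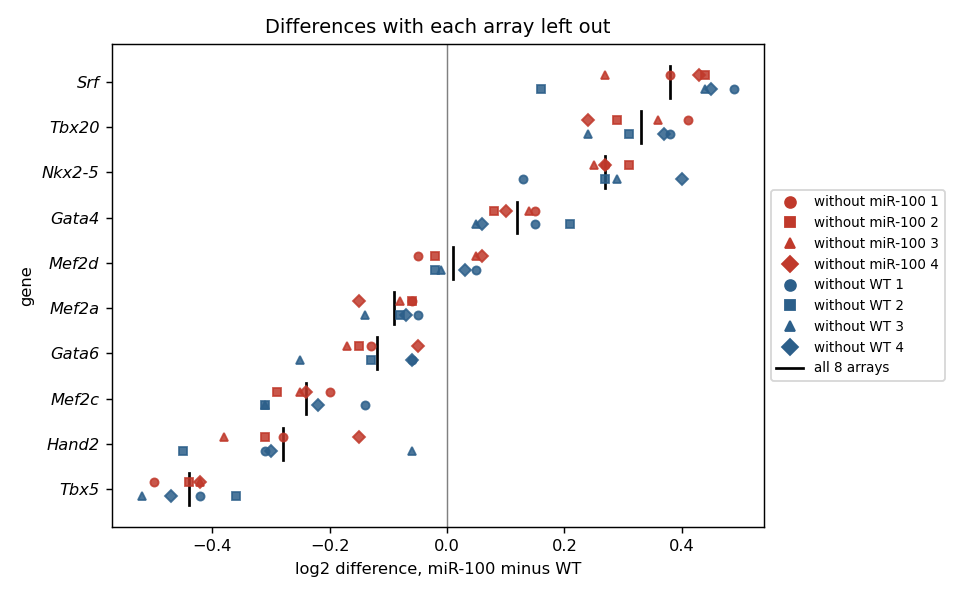
Log2 difference, miR-100 minus WT, of each gene with all 8 arrays (black line) and with each array left out (symbols, red for a miR-100 and blue for a WT array left out). Tbx5 stays between -0.52 and -0.36, Srf drops to 0.16 without WT replicate 2, and Hand2 moves to -0.06 without WT replicate 3.

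The intervals bound the size of change these arrays leave room for. In 5 of the 10 genes, Gata4, Gata6, Mef2a, Mef2c and Mef2d, the 95% interval lay inside a 1.5-fold change in either direction, against 64.4% of all rows. In the other five, changes of 1.5-fold were inside the interval. All 10 intervals lay inside a 2-fold change, against 97.0% of rows, a bound chosen after the values were seen. The lower bounds of Hand2 and Tbx5 were ratios of 0.583 and 0.586, and the upper bounds of Srf and Tbx20 were 1.79 and 1.59. In every fit that left out 1 array all 10 intervals also stayed inside a 2-fold change.

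Within groups the members did not vary together as a block. The number of members above their group mean ran from 4 to 6 on the miR-100 arrays and from 3 to 8 on the WT arrays. After each array was set against its group mean, the closest pair over the 8 arrays was Mef2a and Tbx20 (Pearson r = 0.81, Spearman rho = 0.90) and the most opposed was Mef2a and Hand2 (r = -0.77, rho = -0.76), out of 45 pairs. These correlations are given as descriptions. Over 19571 other rows with a symbol, the rows most like each member in this measure reached r of 0.97 to 0.99, and 7 to 18 rows per member exceeded 0.95. They were Ppp1r32 and Wdyhv1 for Tbx5, Acsl5 and Tnn for Tbx20, Ccny and 1810037I17Rik for Srf, Car5a and Pcx for Nkx2-5, and Eef2 and Ccdc57 for Hand2. For the others they were Olfr777 and Heatr5a (Gata4), Sost and P2rx2 (Gata6), Styx and Pitpnc1 (Mef2a), Blmh and Plekhg2 (Mef2c), and Macroh2a2 and Smarce1 (Mef2d). Each is the top of a search of 19571 rows over only 8 arrays, so a high r alone is no sign of a link.

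Of 20 measured related cardiac transcription factors 0 passed in either direction, with a median difference of 0.02. None had an unadjusted p under 0.05 (limma), against 7.73% of all rows. Tbx1, a pharyngeal and outflow tract T-box gene, had the lowest unadjusted p among those higher, at 0.33 (limma adjusted p = 0.675), and Irx5, an Iroquois gene that shapes repolarization across the wall, among those lower, at -0.34 (limma adjusted p = 0.694). Tbx3, a repressor active in the conduction system, differed by 0.0 and ran from -0.12 to 0.10 without single arrays. Irx4 and Hey2, regulators of ventricular identity, differed by 0.20 and 0.13. Irx4 differed by 0.01 without WT replicate 2, and Hey2 ran from -0.10 to 0.37 without single arrays. The closest paralogs Gata5, Mef2b and Hand1 were dim, with row means at percentiles 7.43, 14.9 and 12.7, and differed by 0.04, -0.26 and -0.12, with the sign of Gata5 turning without single arrays (-0.09 to 0.10).

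Of 20 measured cofactors, repressors and upstream kinases 0 passed, with a median difference of 0.02. At an unadjusted p under 0.05 (limma) there was 1 gene of the 20, against 7.73% of all rows. This was Prkd1, which encodes protein kinase D1, a kinase that releases class II histone deacetylases from MEF2. Its log2 signal was 6.55, 6.07, 6.43 and 5.91 in miR-100 hearts, against 6.98, 6.78, 6.75 and 6.88 in WT hearts. The groups did not overlap, as in 4.54% of all rows, and the difference was -0.61 (SE 0.17, limma adjusted p = 0.288). Mrtfa, an SRF coactivator, had the lowest unadjusted p among those higher, at 0.25 (limma adjusted p = 0.716). Myocd, the muscle coactivator of SRF, differed by 0.06, Zfpm2, the GATA4 cofactor FOG2, by -0.21, Hopx, a homeodomain protein that restrains SRF, by 0.16, and Tead1, a Hippo pathway factor active in muscle, by -0.01. The sign of Myocd changed without single arrays, between -0.19 and 0.29, and that of Tead1 between -0.11 and 0.05, and Hopx differed by 0.07 without WT replicate 2.

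Of 27 measured cardiac genes known as targets of the GATA, NKX, TBX and MEF2 factors 0 passed, and the median difference was 0.01. At an unadjusted p under 0.05, 5 were higher and 0 lower, against 3.55% and 4.17% of all rows. The 5 were Nppa, Nppb, the connexin gene Gja1 (0.46), the sodium-calcium exchanger gene Slc8a1 (0.41) and the myosin binding protein gene Mybpc3 (0.40). Nppa, which encodes atrial natriuretic peptide, had 18.76, 18.07, 18.11 and 18.48 in miR-100 hearts, against 17.53, 17.15, 17.04 and 17.54 in WT hearts (log2 signal). The groups were apart, and the difference was 1.04 (SE 0.19, limma adjusted p = 0.0616). Its limma adjusted p was 0.0466 with the replicate number as a block, although the values gave no sign that the numbers pair the samples. Nppb, which encodes brain natriuretic peptide, had 12.05, 13.34, 12.51 and 12.22 in miR-100 hearts, against 11.81, 10.41, 10.73 and 11.58 in WT hearts. These groups were also apart, and the difference was 1.40 (SE 0.32, limma adjusted p = 0.176).

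Among other sarcomere genes of the list, Myh6 and Myh7, the alpha and beta myosin heavy chains, differed by -0.04 and -0.38 and did not pass (limma adjusted p = 0.972 and 0.797). Among the targets that were lower, Myl3, the essential light chain of the ventricle, had the lowest unadjusted p, with a difference of -0.27 (limma adjusted p = 0.689). Rows such as Myh6, with a mean of 19.15, lie near the ceiling of 19.93, where differences are compressed. Of the 6 atrial markers, which include Nppa, 4 had differences below 0. These were Myl7 (-0.40), Dkk3 (-0.40), Myl4 (-0.26) and Sln (-0.01), while Bmp10 differed by 0.09. The mean log2 signal of the list, Nppa included, was 7.27 to 7.41 on the miR-100 arrays and 7.27 to 7.39 on the WT arrays. The part of atrial tissue in the Nppa values was not tested.

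The promoters of Nppa and Nppb, which neighbour each other on chromosome 4, are printed because these targets had the largest differences in the list. Capitals mark GATA letters and, in Nppa, the T-box half-site (AGGTGT, here on the other strand) followed by the NKX letters TNAAGTG. These motifs were held by 13.7% and 11.5% of the 32851 promoters, and by 1 (of Mef2c) and 0 of the 9 member promoters.
Nppa promoter, chr4:148000472-148000771, plus strand: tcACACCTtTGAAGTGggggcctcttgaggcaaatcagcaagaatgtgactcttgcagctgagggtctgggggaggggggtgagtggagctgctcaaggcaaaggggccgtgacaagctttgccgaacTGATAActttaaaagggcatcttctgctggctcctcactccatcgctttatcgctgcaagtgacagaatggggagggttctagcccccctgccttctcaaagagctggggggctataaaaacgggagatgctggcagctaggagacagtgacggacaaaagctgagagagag
Nppb promoter, chr4:147985650-147985949, plus strand: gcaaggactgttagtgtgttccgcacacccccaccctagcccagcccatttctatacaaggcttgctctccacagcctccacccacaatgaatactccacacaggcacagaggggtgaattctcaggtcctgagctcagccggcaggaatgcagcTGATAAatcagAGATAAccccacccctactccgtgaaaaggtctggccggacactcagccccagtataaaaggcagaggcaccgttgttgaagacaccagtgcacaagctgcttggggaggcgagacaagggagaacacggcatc
Nppa held a T-box half-site at -248 to -243, an NKX match at -241 to -235 and a GATA match at -122 to -117. Nppb held 2 GATA matches, at -95 to -90 and -84 to -79 from the gene start. The MEF2 and CArG boxes were not in either window, which says nothing of binding elsewhere or to other letters.

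**Figure D4:**
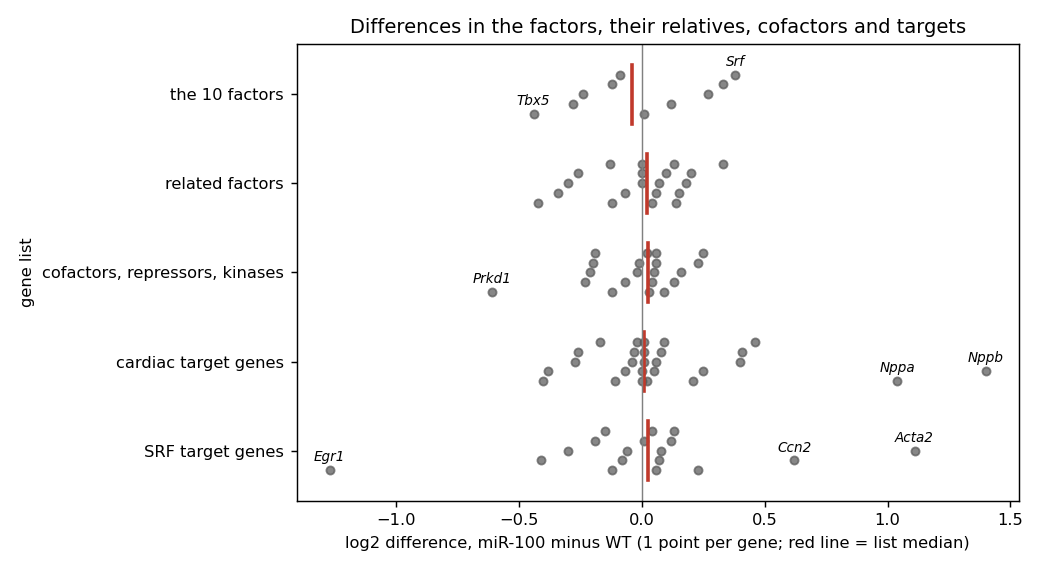
Log2 difference, miR-100 minus WT, of every measured gene (1 point each) in the 10 factors, related factors, cofactors and kinases, cardiac target genes and SRF target genes. Red lines mark list medians, which run from -0.04 to 0.02; Nppa, Nppb and Acta2 lie to the right and Egr1 to the left of the rest.

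Of 18 measured genes known as SRF targets 0 passed over all arrays. At an unadjusted p under 0.05 (limma), 1 was higher and 2 lower, against 3.55% and 4.17% of all rows. The median difference was 0.02, and it was -0.08 without WT replicate 2 and -0.07 without miR-100 replicate 1. Acta2, the smooth muscle actin that heart muscle also makes under stress, had 13.74, 14.01, 14.66 and 12.94 in miR-100 hearts, against 12.86, 12.71, 12.72 and 12.61 in WT hearts (log2 signal). The miR-100 hearts were all higher and widely spread, with replicate 4 close to the WT hearts. The difference was 1.11 (SE 0.27, limma adjusted p = 0.203), and without miR-100 replicate 4 it was 1.41 (limma adjusted p = 0.0442). Acta2 also marks smooth muscle, and of the other smooth muscle and pericyte markers Cspg4, Rgs5, Myh11 and Pdgfrb differed by 0.21, 0.03, -0.06 and -0.14. The mean log2 signal of that list, Acta2 included, was 10.43 to 10.90 on the miR-100 arrays and 10.39 to 10.51 on the WT arrays, with none of its other genes at an unadjusted p under 0.05. The part of these cells in the Acta2 values was not tested. The Acta2 promoter, searched over the same window, held 0 matches to the CArG box, MEF2 box, GATA, NKX and T-box letters. That says nothing of binding elsewhere or to other letters.

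Egr1, an immediate early gene that SRF activates with ternary complex factors, had 7.58, 7.91, 7.24 and 7.90 in miR-100 hearts, against 8.89, 9.50, 7.56 and 9.76 in WT hearts. WT replicate 3 fell within the miR-100 range and the other WT hearts lay well above it. The difference was -1.27 (SE 0.37, limma adjusted p = 0.33), and without WT replicate 3 it was -1.73 (limma adjusted p = 0.024). Acta1, the skeletal actin of the fetal heart, and Vcl, which encodes vinculin, differed by 0.07 and 0.04, and Fos by -0.15, and each changed sign when single arrays were left out (-0.15 to 0.27, -0.08 to 0.12 and -0.33 to 0.03). Lmod1, the smooth muscle leiomodin gene, was the other SRF target lower at an unadjusted p under 0.05, with a difference of -0.41 (limma adjusted p = 0.577).

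Markers of the cell types in the ventricle showed 0 genes past the threshold. The median differences were -0.01 for 6 cardiomyocyte, -0.14 for 6 atrial, -0.13 for 4 conduction system, -0.14 for 5 fibroblast and -0.06 for 5 endothelial markers. They were 0.03 for 5 smooth muscle and pericyte, 0.04 for 4 macrophage, 0.01 for 4 lymphocyte and 0.05 for 3 epicardial and mesothelial markers. At an unadjusted p under 0.05 (limma), Nppa and Acta2 were higher. Lower at that level were Cntn2 (conduction system, -0.51), Dkk3 (atrial, -0.40) and Upk3b (epicardial and mesothelial, -0.60). Because Tbx5, Tbx20, Gata4 and Gata6 are also made outside the muscle cell, by fibroblasts or endothelium, these values stand beside theirs, and their part in the differences was not tested.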

How the data were processed

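RNA from left ventricles of 8 mice was measured on Affymetrix arrays. Per the submitters' processing notes the authors used Transcriptome Analysis Console 4.0, and they deposited 1 log2 signal for each transcript cluster (probes for 1 transcribed region); summarization, normalization and array build are not given in the sources used here. Of 22206 rows, 19572 had 1 symbol in the platform annotation, and all 19572 matched a RefSeq gene of GRCm38.p6, as did the printed sequences.

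The deposited log2 values were fitted without a filter with limma 3.58.1 in R 4.3.3 (2 groups, empirical Bayes), with Benjamini-Hochberg adjustment over all rows and a threshold of 0.05; SE, intervals and unadjusted p come from the same fit. The fit was tested on simulated data. The members and gene lists were chosen with earlier results of these data known. All members are named; of each list, every gene past the threshold, the gene of lowest p in each direction and a fixed set of regulators and targets are named, and further genes after their values were seen. Same-numbered samples had correlations of deviations from -0.0597 to 0.0663, against -0.061 to 0.071 between differently numbered samples. The values thus gave no sign that the numbers pair the samples, which cannot exclude shared litters or handling. Alternatives were moderation, array weights, normalization, filters, a replicate block and leaving out each array.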

Additional observations from a re-analysis of the deposited data

Results flagged for a closer look

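The search covered 45 genes, the members and most of the other genes described with values. Cntn2, Dkk3 and Upk3b were among those left out, and in Upk3b WT replicate 1 was at 4.14, against 5.18 to 5.39. Of the 90 groups of 4 hearts searched, 6 held 1 heart far from the rest by Dixon's test. Chance flags about 1 in 20 groups. Srf in WT replicate 2 was at 8.59, against 9.42 to 9.56 in the other WT hearts. Myh6 in the same heart was at 19.13, against 19.18 to 19.19, a gap of a few hundredths near the ceiling of the scale. In WT replicate 4, Gata5 was at 3.05, against 3.55 to 3.62, and Irx5 at 5.0, against 5.59 to 5.63. Acta1 in miR-100 replicate 1 was at 14.44, against 13.5 to 13.63 in the other miR-100 hearts. Myl2 in miR-100 replicate 3 was at 19.22, against 19.34 to 19.35, also near the ceiling.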

How the results depend on the processing

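No member passed in any of the 17 alternatives, and the lowest limma adjusted p among them was 0.255, for Tbx5. Mef2d changed sign, with differences from -0.05 to 0.06 when single arrays were left out (-0.05 and -0.02 without miR-100 replicates 1 and 2, and -0.02 and -0.01 without WT replicates 2 and 3), and the other nine members kept their sign throughout. The members inside a 1.5-fold change numbered 4 to 6. With an intensity trend the table held 65 rows past the threshold against 31, and without single arrays 11 to 27. Members at an unadjusted p under 0.05 numbered 2 with the trend (Tbx20 joined Tbx5) and 1 to 2 without single arrays. Nppa passed, as 1 of the cardiac targets, with the trend (limma adjusted p = 0.00488), among rows above the 50th percentile (0.0399) and with the replicate block (0.0466), and in 0 of the 8 fits without 1 array (0.0668 to 0.18). Among SRF targets 0 to 1 passed without single arrays, Acta2 without miR-100 replicate 4 and Egr1 without WT replicate 3. The block changed no other call in the members or lists. The cause was not tested. Each member had 1 row, so other rows could not be tried.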
